A study of Mus musculus with 7 samples.

Results

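Follicular helper T cells are the CD4+ T cells that move into B cell follicles and help germinal centre B cells make high-affinity antibody. The repressor Bcl6 directs their program, the chemokine receptor Cxcr5 brings them to the follicle, and the cytokine interleukin 21 and contacts through SLAM family receptors act on the B cell. Kdm6a encodes an X-linked demethylase of lysine 27 on histone H3. Here 10 genes of the follicular program, Bcl6, Cxcr5, Il21, Sh2d1a, Tox, Tox2, Ascl2, Cd200, Pou2af1 and Slamf6, were picked by symbol for their known role out of the 39017 Ensembl genes of the count table. The choice was made with earlier results of these data known. All 10 passed the filter on low counts, and their levels were compared between Kdm6a-deleted and control CD4+ T cells.

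The conditional knockout (cKO) group was 4 libraries, replicates 2, 3, 7 and 12, from mice with floxed/floxed Kdm6a and 1 copy of the CD4-Cre transgene (+/-). The wild-type (WT) group was 3 libraries, replicates 10, 14 and 19, from littermates that also had floxed/floxed Kdm6a but no CD4-Cre (-/-). All were female C57BL/6 mice with experimental autoimmune encephalomyelitis (EAE), an induced model of multiple sclerosis, with no age stated in the labels. Lymph node cells taken on day 17 were kept for 18 hours with 25 µg/mL of myelin peptide MOG 35-55 before CD4+ T cells were sorted. The CD4-Cre transgene recombines in developing T cells of the CD4 and CD8 lineages. It was present in the cKO group only, so its presence and the deletion cannot be told apart in this design. Whether each library stands for its own animal is not said in the labels, and p-values therefore reflect only how much these libraries vary. The cells were CD4+ T cells in bulk and not sorted follicular helper cells, so fewer cells of a type and less RNA per cell cannot be told apart.

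Total counts ran from 17910536 to 23721927 in cKO libraries and from 25360660 to 28697579 in WT libraries. Kdm6a itself had 104, 96.2, 100 and 104 CPM (read counts scaled to the effective library size) in cKO replicates 2, 3, 7 and 12, against 120, 125 and 113 CPM in WT replicates 10, 14 and 19, so counts over the whole gene were lower in every cKO library. Cd4 ran from 1027 to 1240 CPM in cKO and from 986 to 1130 CPM in WT libraries, and Cd8a reached at most 2.78 CPM in cKO and 0.734 CPM in WT. Among the other T cell genes checked, Cd8b1, a chain of the CD8 coreceptor, had 13 ± 0.411 CPM in cKO and 9.99 ± 1.19 CPM in WT (SD), higher in every cKO library (edgeR adjusted p = 0.072), and Thy1 had 270 ± 108 CPM in cKO and 562 ± 27.9 CPM in WT (SD). Apart from Thy1, the CD4 T cell markers had log2 fold changes from -0.12 (Cd3d) to 0.26 (Cd5). The abundant transcript Gm42418 took 9.22% of counts in cKO replicate 2, 3.76% to 4.26% in the other cKO libraries and 2.55% to 2.98% in WT libraries. That library, cKO replicate 2, stood apart from the rest: the chi-square per gene was 56.2 to 119 in its pairs and 6.33 to 34.5 in pairs of the other libraries. The chi-square included Gm42418 and was not computed without it, so the 2 measures are not independent. The same library also had the highest sum of 10 dendritic cell and monocyte markers, 92.9 CPM, against 31 to 48.9 CPM in the other cKO libraries and 31.6 to 41.2 CPM in WT. Without it the log2 fold changes were 0.01 for Bcl6, 0.07 for Cxcr5, 0.11 for Pou2af1, 1.02 for Ascl2, 0.47 for Tox and -0.48 for Slamf6, and its part in the results was not tested further.

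None of the 10 follicular genes passed the adjusted p threshold of 0.05 in edgeR's quasi-likelihood test, 0 higher and 0 lower in cKO, where 6.44% of the 15968 tested genes did. At an unadjusted p under 0.05 there were 2 higher, Tox and Ascl2, and 1 lower, Slamf6, that is 3 of 10 where 21.4% of all tested genes passed. DESeq2 and limma voom each called the same pair, Tox as higher and Slamf6 as lower. Of all tested genes, DESeq2 called 4.84% higher and 5.39% lower, and limma voom 5.02% higher and 5.81% lower. The cKO and WT libraries did not overlap for 1 of the 10 genes, Tox, where 21% of all tested genes had separate groups. Log2 fold changes of the 10 genes ran from -0.36 to 1.22 with a median of 0.12, beside a median of 0.01 over all tested genes.

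**Figure D1:**
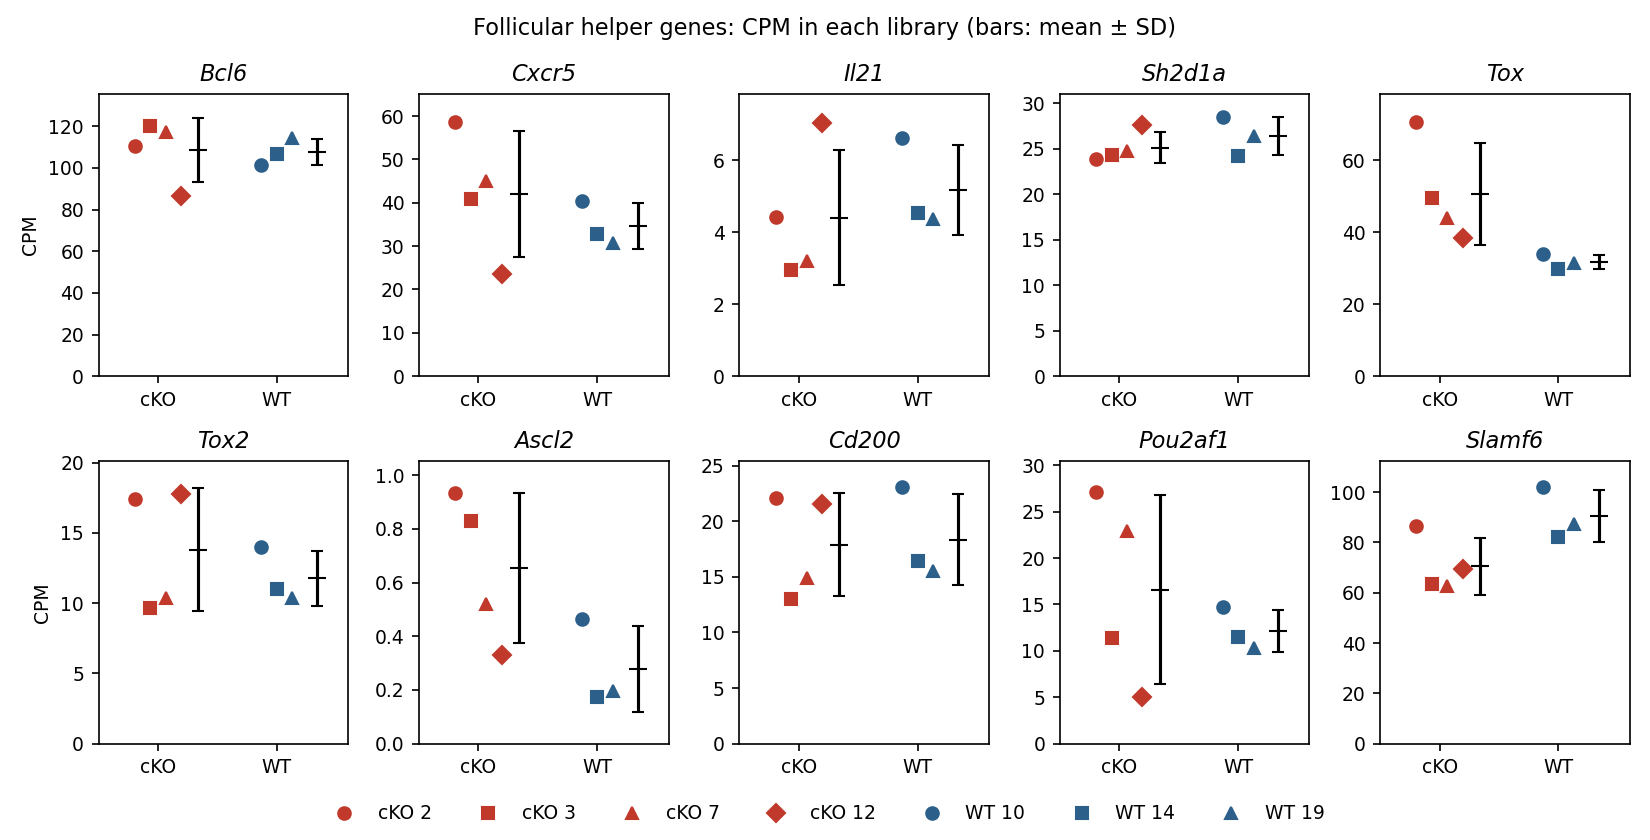
CPM (y axis, from 0) of each of the 10 follicular helper genes, with 1 point per library (red, cKO replicates 2, 3, 7 and 12; blue, WT replicates 10, 14 and 19) and the mean ± SD beside each group. Tox is the panel in which every cKO point, 38.4 to 70.6 CPM, lies above every WT point, 29.8 to 33.8 CPM.

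**Figure D2:**
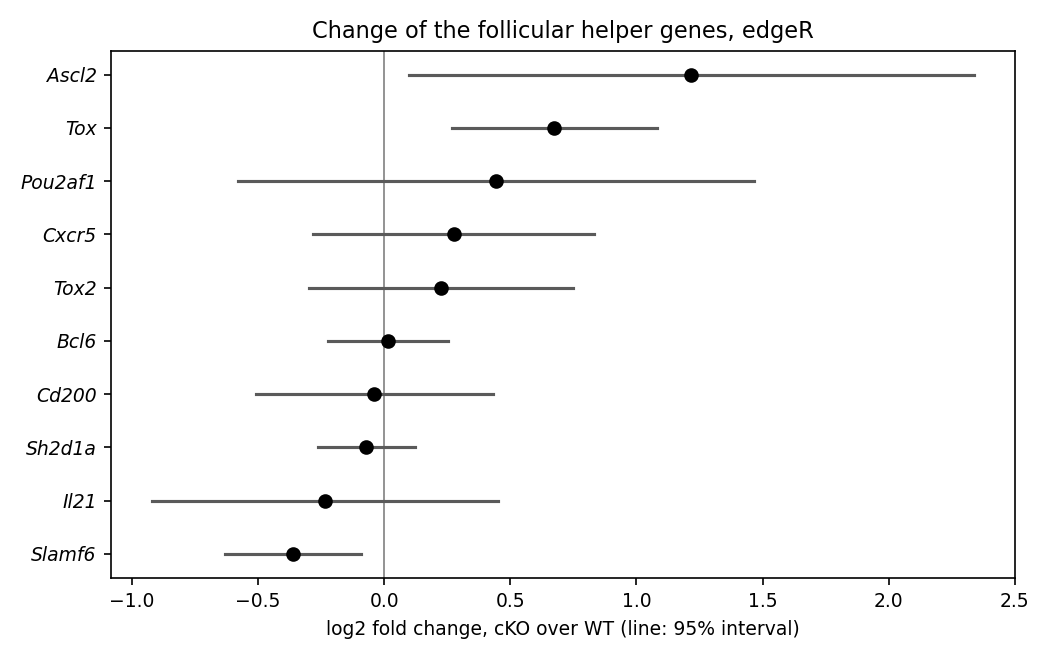
Log2 fold change, cKO over WT, of each gene from edgeR (points) with its unadjusted 95% interval (lines), sorted from the highest at the top. The intervals of Ascl2, Tox and Slamf6 leave out 0, and those of Bcl6 and Sh2d1a are the narrowest around it.

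The master regulator did not pass the test and its interval was narrow. Bcl6 (ENSMUSG00000022508, chromosome 16, 23965052 to 23988852 on mm10), a zinc finger repressor that is required for the follicular fate, had 110, 120, 117 and 86.6 CPM in cKO replicates 2, 3, 7 and 12, against 102, 107 and 114 CPM in WT replicates 10, 14 and 19. The WT values lay inside the cKO range, and cKO replicate 12 was the lowest of all 7. Means were 109 ± 15.2 CPM in cKO (SD, n = 4) and 108 ± 6.34 CPM in WT (SD, n = 3). The edgeR fold was 1.01 with a 95% interval of 0.856 to 1.19 (adjusted p = 0.957).

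Tox and Tox2 encode related HMG-box nuclear factors of the follicular program. Tox (ENSMUSG00000041272, chromosome 4, 6686353 to 6991557), which is also needed for CD4 T cell development and accumulates in chronically stimulated T cells, had 70.6, 49.6, 43.9 and 38.4 CPM in cKO replicates 2, 3, 7 and 12, against 33.8, 29.8 and 31.3 CPM in WT replicates 10, 14 and 19. Every cKO library was above every WT library, and cKO replicate 2 stood highest. The means were 50.6 ± 14.1 CPM in cKO (SD, n = 4) and 31.7 ± 2.01 CPM in WT (SD, n = 3). The log2 fold change was 0.67 ± 0.18 (SE, edgeR adjusted p = 0.0609), a 1.6-fold higher level with an unadjusted 95% interval of 1.2 to 2.12. An exact two-sided permutation test of the mean CPM over all 35 ways to assign the libraries gave p = 0.0571 for Tox, or 0.38 after Benjamini-Hochberg adjustment over the 10 genes, where the smallest p possible is 0.0286.

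The position of Tox against the threshold changed with the tool and with the library left out. DESeq2 gave an adjusted p of 0.00344, limma voom 0.0155 and edgeR without a filter on low counts 0.0232. Without cKO replicate 2 the log2 fold change was 0.47 (edgeR adjusted p = 0.0243) and without cKO replicate 12 it was 0.79 (0.0287). Leaving out WT replicate 10, 14 or 19 gave log2 fold changes of 0.72, 0.63 and 0.67 (edgeR adjusted p = 0.138, 0.217 and 0.18). The calls over all genes were 497, 419 and 466 in those fits, against 1028 with all libraries. With the B cell markers described further on as a covariate, the log2 fold change was 0.47 (adjusted p = 0.152). The antisense gene Gm11802 shares 260 exonic bases with Tox on the opposite strand and had 7.06, 4.07, 3.73 and 3.88 CPM in cKO replicates 2, 3, 7 and 12, against 3.17, 2.11 and 2.76 CPM in WT replicates 10, 14 and 19. The use of strand in counting is not given in the sources used here, so reads over those shared bases may belong to either gene.

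**Figure D3:**
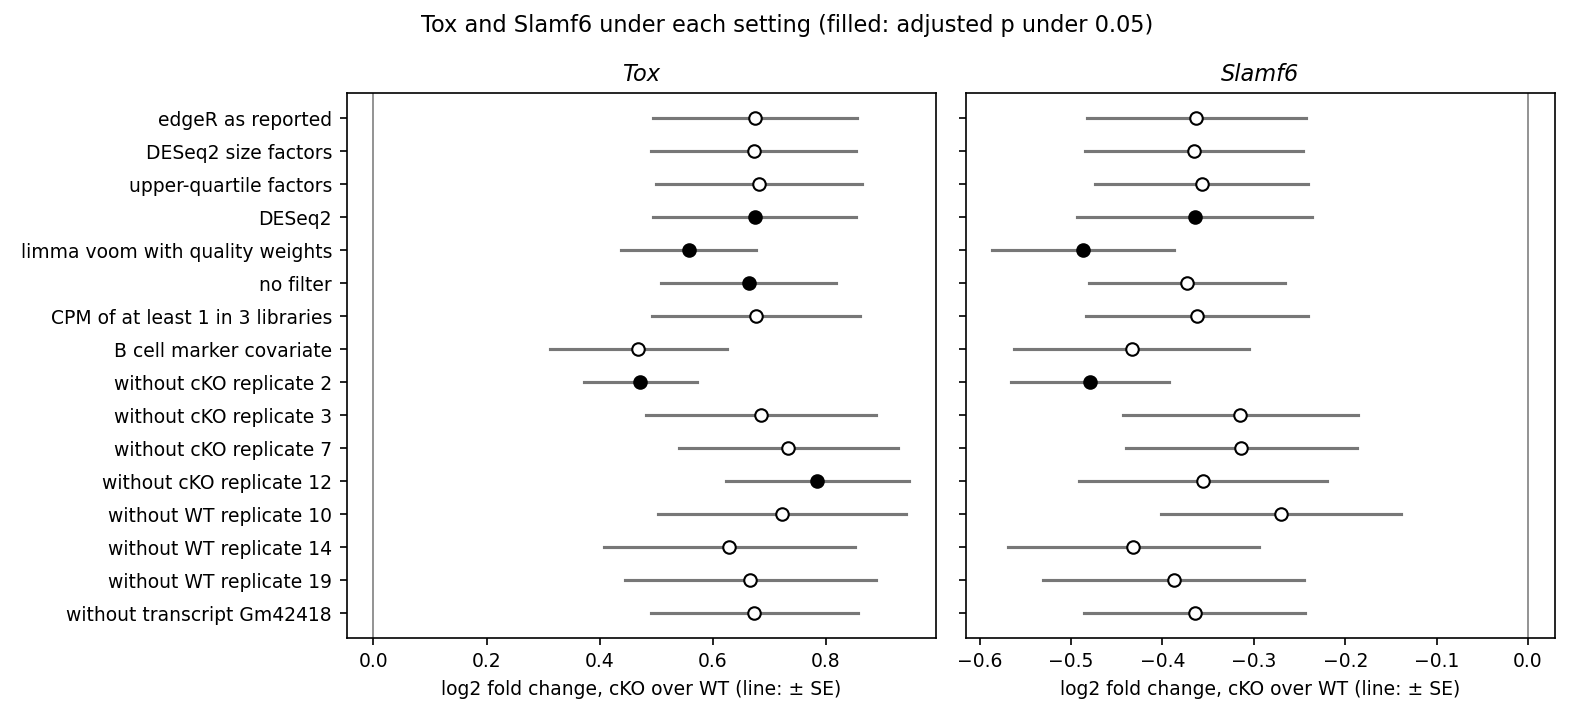
Log2 fold change, cKO over WT, of Tox (left) and Slamf6 (right) with its SE (lines) in edgeR as reported and under each other setting, with filled points where the adjusted p was under 0.05. Tox stayed between 0.47 and 0.79 and Slamf6 between -0.49 and -0.27 in all of them.

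Tox2 (ENSMUSG00000074607, chromosome 2, 163203125 to 163324170), the paralog of Tox that in mouse T cells is induced by Bcl6 and opens chromatin at follicular genes, had 17.4, 9.68, 10.4 and 17.8 CPM in cKO replicates 2, 3, 7 and 12, against 14, 11 and 10.4 CPM in WT replicates 10, 14 and 19. The cKO libraries fell into a high pair, 2 and 12, and a low pair, 3 and 7, on either side of the WT mean. The edgeR fold was 1.17 with an interval of 0.812 to 1.68 (adjusted p = 0.645), and limma voom with quality weights turned the sign (log2 -0.10, adjusted p = 0.777). The other paralogs were Tox4, with 138 ± 7.59 CPM in cKO and 139 ± 4.08 CPM in WT (SD), and Tox3, which was too low to be tested.

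Ascl2 (ENSMUSG00000009248, chromosome 7, 142966829 to 142969264), a basic helix-loop-helix factor that in mouse T cells raises Cxcr5 before Bcl6 acts, was close to the limit of detection. It had 16, 20, 12 and 7 counts in cKO replicates 2, 3, 7 and 12, against 12, 5 and 5 counts in WT replicates 10, 14 and 19. In CPM these were 0.934, 0.831, 0.52 and 0.331 in cKO and 0.464, 0.173 and 0.197 in WT. WT replicate 10 lay above cKO replicate 12, so the groups overlapped. The log2 fold change of 1.22 ± 0.50 (SE, edgeR adjusted p = 0.196) had a wide interval, from a 1.07-fold to a 5.06-fold higher level, and was 0.81 with the B cell marker covariate and 1.78 without WT replicate 10.

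Pou2af1 (ENSMUSG00000032053, chromosome 9, 51213708 to 51240080) encodes OCA-B, a coactivator of octamer-binding factors that is strongly expressed in B cells and also acts in T cells. It had 27.1, 11.4, 22.9 and 5.02 CPM in cKO replicates 2, 3, 7 and 12, against 14.7, 11.5 and 10.3 CPM in WT replicates 10, 14 and 19. The cKO libraries held both the highest and the lowest values and spanned 5.4-fold, against 1.43-fold in WT, the widest span among the 10 genes in cKO. The fold of 1.36 had an interval of 0.669 to 2.76 (edgeR adjusted p = 0.639).

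Cxcr5 (ENSMUSG00000047880, chromosome 9, 44511787 to 44561877), the receptor for the follicular chemokine Cxcl13 on both follicular helper T cells and B cells, had 58.6, 41.0, 45.0 and 23.5 CPM in cKO replicates 2, 3, 7 and 12, against 40.5, 32.8 and 30.6 CPM in WT replicates 10, 14 and 19. As for Pou2af1, cKO replicate 2 was the highest and cKO replicate 12 the lowest of the 7 libraries, and the WT values lay between. The fold was 1.21 with an interval of 0.822 to 1.78 (edgeR adjusted p = 0.586). A neighbour on the opposite strand, Bcl9l, shares 110 exonic bases with Cxcr5. Bcl9l had 179 to 212 CPM in cKO and 225 to 262.5 CPM in WT libraries (log2 -0.30, edgeR adjusted p = 0.0638). As for Tox, reads over the shared bases may belong to either gene.

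B cell markers moved with Pou2af1 and Cxcr5 from library to library. Of 14 markers 13 were in the table and all 13 were tested. Each had a positive log2 fold change, from 0.31 to 1.37, where 8323 of the 15968 tested genes had a positive one. No marker passed the threshold in edgeR, DESeq2 or limma voom, and none had an unadjusted p under 0.05 in edgeR. Their summed level ran from 382 to 843 CPM in cKO and from 404 to 555 CPM in WT, and no marker was at 0 in all libraries. Without the immunoglobulin gene Ighm, which made up most of it, the sum was 258, 109, 198 and 47.1 CPM in cKO replicates 2, 3, 7 and 12, against 110, 82.0 and 46.6 CPM in WT replicates 10, 14 and 19. Cd79a, a chain of the B cell receptor complex, had 28.1, 11.2, 21.3 and 5.02 CPM in those cKO libraries and 11.9, 7.28 and 4.21 CPM in those WT libraries. The order of the libraries was close to that of Pou2af1, with cKO replicates 2 and 7 on top.

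**Figure D4:**
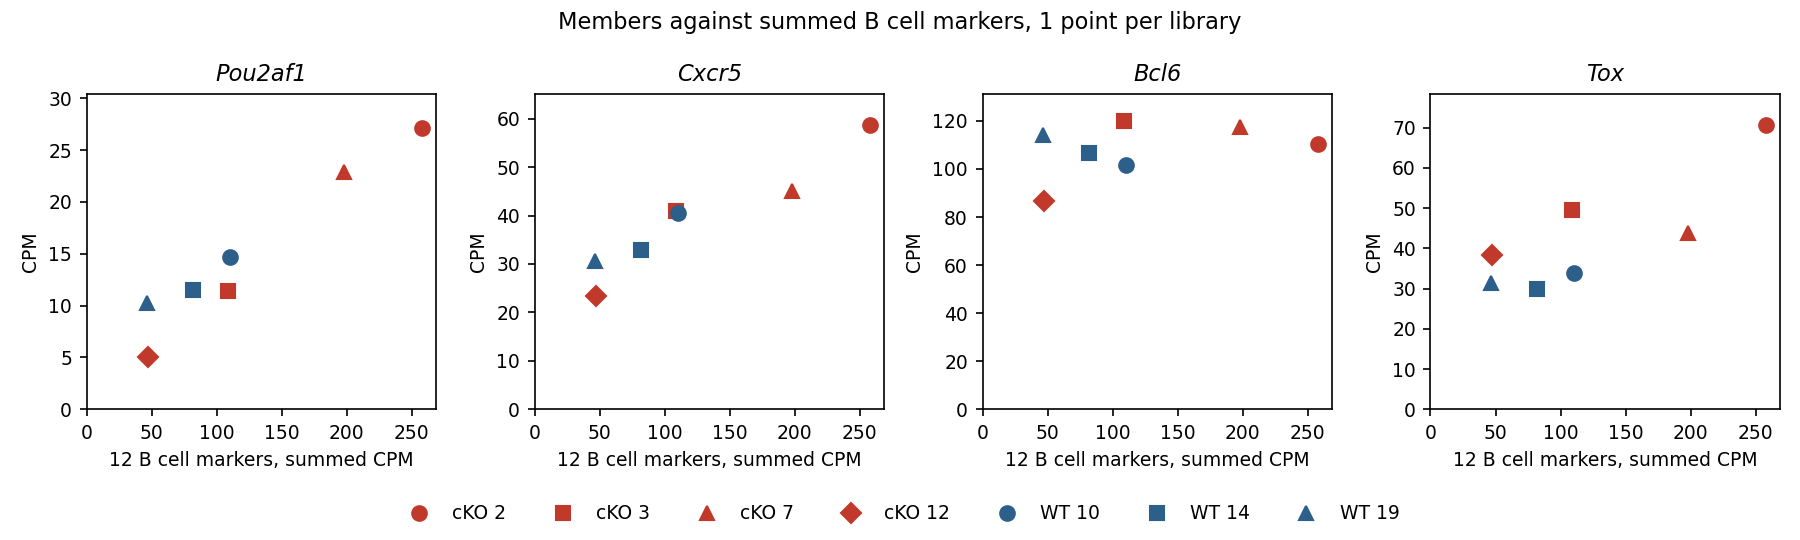
CPM of Pou2af1, Cxcr5, Bcl6 and Tox (y axes, from 0) against the summed CPM of 12 B cell markers without Ighm (x axes, from 0), 1 point per library (red, cKO; blue, WT). Pou2af1 and Cxcr5 are highest in cKO replicate 2, which has 258 CPM of markers, and lowest in cKO replicate 12, which has 47.1 CPM. Tox separates red from blue points, and among the red points it is also highest in replicate 2 and lowest in replicate 12.

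With the mean log2 CPM of the 13 markers as a covariate in edgeR, the log2 fold change of Pou2af1 was -0.50 (adjusted p = 0.261), against 0.44 without it, and that of Cxcr5 was -0.14 (adjusted p = 0.596), against 0.28 without it. Under the covariate Tox kept its positive sign (log2 0.47, against 0.67 without it) and Slamf6 its negative sign (-0.43, against -0.36). Markers of germinal centre B cells were low, with Gcsam at 0 in all libraries. Their 5 genes summed to 7.41 to 12.3 CPM in cKO and 7.6 to 9.84 CPM in WT. The part of B cells in the levels of Cxcr5 and Pou2af1 was not tested beyond this covariate.

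Interleukin 21, the cytokine by which follicular helper cells drive germinal centre B cells and which Th17 cells also make, was expressed at a low level. Il21 (ENSMUSG00000027718, chromosome 3, 37222759 to 37232636) had 76, 71, 74 and 149 counts in cKO replicates 2, 3, 7 and 12, against 171, 131 and 111 counts in WT replicates 10, 14 and 19. In CPM these were 4.44, 2.95, 3.21 and 7.05 in cKO and 6.61, 4.54 and 4.37 in WT. The single highest library was cKO replicate 12, and the other cKO libraries lay below WT replicates 10 and 14. The fold was 0.851 with an interval of 0.529 to 1.37 (edgeR adjusted p = 0.723), and without cKO replicate 12 the log2 fold change was -0.56 (adjusted p = 0.213). The antisense gene Gm12534 shares 469 exonic bases with Il21 on the opposite strand. It had 8 to 15 counts in cKO and 9 to 17 counts in WT libraries, and reads over the shared bases may belong to either gene.

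Cd200 (ENSMUSG00000022661, chromosome 16, 45382135 to 45409053), a surface glycoprotein of follicular helper cells that signals to the inhibitory receptor Cd200r1 on other cells, had 22.1, 13, 14.9 and 21.6 CPM in cKO replicates 2, 3, 7 and 12, against 23.0, 16.4 and 15.6 CPM in WT replicates 10, 14 and 19. The groups overlapped, with a fold of 0.973 and an interval of 0.703 to 1.35 (edgeR adjusted p = 0.94).

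Il21, Tox2 and Cd200 shared a pattern across libraries that did not follow the genotype, noticed after their values were seen. All 3 were lowest in cKO replicate 3, and in all 3 both cKO replicate 12 and WT replicate 10 ranked among the first 3 libraries. How many other genes have these ranks was not counted, so the likeness of Il21, Tox2 and Cd200 is only described. Their promoters are shown to set these members side by side, as 250 bases before to 50 after the RefSeq start (GRCm38.p6, the mm10 coordinates), 5′ to 3′ on the coding strand, with CpG dinucleotides, where methylation of DNA can occur, in capitals.
Il21, minus strand, chr3:37232587-37232886: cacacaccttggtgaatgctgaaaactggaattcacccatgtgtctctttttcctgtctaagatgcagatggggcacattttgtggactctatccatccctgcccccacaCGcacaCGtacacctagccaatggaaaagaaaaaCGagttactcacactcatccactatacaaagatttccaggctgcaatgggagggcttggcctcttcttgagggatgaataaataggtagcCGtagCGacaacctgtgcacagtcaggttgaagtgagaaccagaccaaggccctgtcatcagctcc
Cd200, minus strand, chr16:45409004-45409303: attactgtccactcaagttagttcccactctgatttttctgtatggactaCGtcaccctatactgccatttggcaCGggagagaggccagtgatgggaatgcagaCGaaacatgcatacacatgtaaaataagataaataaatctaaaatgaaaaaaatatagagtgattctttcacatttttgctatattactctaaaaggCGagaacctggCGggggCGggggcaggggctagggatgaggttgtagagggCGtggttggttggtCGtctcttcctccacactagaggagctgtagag
Tox2, plus strand, chr2:163202877-163203176: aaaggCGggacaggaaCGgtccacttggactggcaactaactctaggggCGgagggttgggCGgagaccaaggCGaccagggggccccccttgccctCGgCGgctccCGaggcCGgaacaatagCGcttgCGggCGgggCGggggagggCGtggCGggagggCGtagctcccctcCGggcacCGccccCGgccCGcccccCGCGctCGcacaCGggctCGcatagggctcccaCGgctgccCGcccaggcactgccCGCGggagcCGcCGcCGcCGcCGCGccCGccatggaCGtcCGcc

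The 3 windows differed in CpG content. The Tox2 window held 38 CpG dinucleotides, a number that 4.95% of the 32851 RefSeq mouse promoter windows of the same length reach, and those of Il21 and Cd200 held 5 and 8, which 62% and 48.6% reach. Of the other members with a window, Bcl6 held 31, Ascl2 23, Pou2af1 8 and Slamf6 1, beside a median of 7 over all windows. Promoter windows of Cxcr5, Sh2d1a and Tox were not used here. The core letters GGAAA of the NFAT site, counted on both strands, occurred 3 times in the Il21 window, 1 time in those of Bcl6 and Pou2af1 and not in the other 4 windows, where 61.3% of all windows hold at least 1. The octamer ATGCAAAT, bound by the partners of Pou2af1, was found on either strand in none of the 7 windows and in 1.74% of all windows. These matches describe letters only, since no binding or methylation was measured.

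Slamf6 (ENSMUSG00000015314, chromosome 1, 171917515 to 171953170), also called Ly108, a self-binding SLAM family receptor on T and B cells, had 86.7, 63.4, 62.6 and 69.2 CPM in cKO replicates 2, 3, 7 and 12, against 102, 82.3 and 87.4 CPM in WT replicates 10, 14 and 19. The cKO replicates 3, 7 and 12 were below all WT libraries, and cKO replicate 2 overlapped them. The means were 70.5 ± 11.2 CPM in cKO (SD, n = 4) and 90.5 ± 10.2 CPM in WT (SD, n = 3). The log2 fold change was -0.36 ± 0.12 (SE, edgeR adjusted p = 0.115), a fold of 0.778 with an unadjusted interval of 0.645 to 0.938. The adjusted p was 0.0455 by DESeq2 and 0.0122 by limma voom, and 0.0116 in edgeR without cKO replicate 2, where the log2 fold change was -0.48. The exact permutation p of Slamf6 was 0.0857, or 0.38 after adjustment over the 10 genes.

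Sh2d1a (ENSMUSG00000005696, chromosome X, 42502453 to 42529330) encodes SAP, the small adaptor that carries signals from Slamf6 and its relatives and is needed for germinal centre help. It had 23.8, 24.3, 24.8 and 27.6 CPM in cKO replicates 2, 3, 7 and 12, against 28.5, 24.2 and 26.5 CPM in WT replicates 10, 14 and 19. This X-linked gene was the steadiest of the 10 in cKO, with an SD of 6.86% of the mean there and 8.07% in WT, and the groups overlapped. The fold was 0.952 with an interval of 0.834 to 1.09 (edgeR adjusted p = 0.697). Its exons share 1465 bases with Tenm1 on the opposite strand. Tenm1 had 4 to 21 counts in cKO and 8 to 13 counts in WT libraries. As for Tox, reads over the shared bases may belong to either gene.

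Levels between the genes were compared as CPM per kilobase of merged exons, averaged over the 7 libraries. Merged exons join those of all annotated transcripts, from 1623 bases for Ascl2 to 10832 bases for Slamf6, so the order depends on these models. The levels are those of the bulk cells, with any B cell part of Cxcr5 and Pou2af1 included. Bcl6 was first at 16.1, followed by Cxcr5 at 11.7, Slamf6 at 7.3, Pou2af1 at 5.77, Tox at 5.59, Cd200 at 5.45, Sh2d1a at 4.66, Tox2 at 3.8, Il21 at 0.901 and Ascl2 at 0.304. The ranges over libraries of neighbours in that order overlapped except those of Tox2 and Il21. Compared within each library, Cxcr5 was above Slamf6, Tox2 above Il21 and Il21 above Ascl2 in all 7, and the other neighbours kept the order in 3 to 6 of 7. Bcl6 was above 77% and Ascl2 above 7.68% of tested genes on this scale. The spread between libraries, as SD over mean CPM, was larger in cKO than in WT for 8 of the 10 genes, all but Sh2d1a and Ascl2, and for 68% of all tested genes.

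Other genes of the follicular program held calls that the 10 genes did not. The lists of such genes were drawn up with earlier results of these data known. Their counts, here and below, are therefore descriptive, and the shares over all tested genes are no independent test of them. Among 16 receptors and products of follicular helper cells, 4 fell and 0 rose in edgeR, where 3.64% of all tested genes fell and 2.79% rose, and their median log2 fold change was -0.02. At an unadjusted p under 0.05, 6 were lower and 2 higher, where 10.4% of all tested genes were lower and 11.1% higher. DESeq2 called 5 lower and 1 higher, where it called 5.39% of all tested genes lower and 4.84% higher, and limma voom called 5 lower and 0 higher, beside 5.81% and 5.02%. P2rx7, an ATP-gated channel that limits follicular helper cells in mouse Peyer's patches, had 13.8, 10.9, 10.7 and 9.37 CPM in cKO replicates 2, 3, 7 and 12, against 39.7, 38.2 and 41.4 CPM in WT replicates 10, 14 and 19. The groups were far apart (log2 -1.83 ± 0.12 SE, edgeR adjusted p = 5.3e-05), and the call held in every alternative. Izumo1r, the folate receptor 4 gene, had 54.4 to 64.9 CPM in cKO and 83.3 to 114 CPM in WT libraries and was also called in every alternative.

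Il6ra, the receptor gene for interleukin 6, which induces Bcl6, had 68.6, 127, 136 and 111 CPM in cKO replicates 2, 3, 7 and 12, against 188, 196 and 211 CPM in WT replicates 10, 14 and 19. Its call (log2 -0.84, edgeR adjusted p = 0.0298) was lost with the B cell marker covariate (log2 -0.75, adjusted p = 0.092) and without cKO replicate 12 (-0.84, 0.0568) or WT replicate 10 (-0.88, 0.0825), 14 (-0.85, 0.106) or 19 (-0.79, 0.118). The inhibitory receptor gene Btla had 59.5 to 66.6 CPM in cKO and 69.4 to 82.1 CPM in WT libraries (log2 -0.31, edgeR adjusted p = 0.038). Its adjusted p was above 0.05 when cKO replicate 3 (log2 -0.31, adjusted p = 0.0778), 7 (-0.30, 0.0829) or 12 (-0.30, 0.0692), or WT replicate 10 (-0.27, 0.157) or 14 (-0.29, 0.159), was left out. The most abundant members that did not pass were Icos, the costimulator gene of follicular cells, with 429 ± 122 CPM in cKO and 399 ± 53.7 CPM in WT, Il6st with 260 ± 36.4 CPM in cKO and 312 ± 14.4 CPM in WT, and Cd28 with 215 ± 23.4 CPM in cKO and 174 ± 6.21 CPM in WT (SD). Cd28 and Pdcd1, the PD-1 gene, were the 2 higher genes at an unadjusted p under 0.05 in edgeR. Pdcd1 had 65.5 ± 25.2 CPM in cKO and 37.0 ± 7.13 CPM in WT (SD, log2 0.82, edgeR adjusted p = 0.104), and its groups overlapped.

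Among 28 upstream regulators and cofactors of Bcl6, 1 rose and 2 fell in edgeR, where 2.79% of all tested genes rose and 3.64% fell. DESeq2 called 1 higher and 4 lower, beside 4.84% and 5.39% of all tested genes. Limma voom called 4 higher and 4 lower, beside 5.02% and 5.81%. At an unadjusted p under 0.05 in edgeR, 6 were higher and 7 lower, where 11.1% and 10.4% of all tested genes were. Id3, an inhibitor of E proteins that restrains the follicular fate, had 17.3, 19.5, 19.5 and 16.9 CPM in cKO replicates 2, 3, 7 and 12, against 11.7, 8.21 and 10.8 CPM in WT replicates 10, 14 and 19 (log2 0.84 ± 0.13 SE, edgeR adjusted p = 0.0059). Every cKO library was above every WT library, and the call held in every alternative. Foxo1, a forkhead factor whose loss favours follicular cells in mice, had 320 to 382 CPM in cKO and 438 to 488 CPM in WT libraries (log2 -0.38, edgeR adjusted p = 0.0188), a call lost with the B cell marker covariate (log2 -0.37, adjusted p = 0.0635) and without WT replicate 14 (-0.40, 0.0715) or 19 (-0.34, 0.0847). Nfatc2, a calcium-dependent activator, had 204 to 212 CPM in cKO and 250 to 255 CPM in WT libraries (log2 -0.28, edgeR adjusted p = 0.00964), lost without WT replicate 10 (log2 -0.27, adjusted p = 0.0522). The abundant Ets1 and Tcf7 did not pass, at log2 fold changes of 0.16 and -0.17.

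Of 20 genes of programs that oppose Bcl6 or that it represses, 2 rose and 1 fell in edgeR, beside the same 2.79% and 3.64% of all tested genes. DESeq2 called 3 higher and 1 lower, beside 4.84% and 5.39% of all tested genes. Limma voom called 2 higher and 1 lower, beside 5.02% and 5.81%. At an unadjusted p under 0.05 in edgeR, 7 were higher and 1 lower, where 11.1% and 10.4% of all tested genes were. Every cKO library was above every WT library for 6 genes, and below for 1, where 10.3% and 10.7% of all tested genes were so. Il2ra, described further on, was 1 of those 6. Il2rb, a receptor chain of interleukin 2, which restrains follicular differentiation, had 824, 663, 585 and 693 CPM in cKO replicates 2, 3, 7 and 12, against 484, 453 and 378 CPM in WT replicates 10, 14 and 19 (log2 0.66 ± 0.12 SE, edgeR adjusted p = 0.0135). Tbx21, the T-bet gene, was 2.21-fold higher (log2 1.14, adjusted p = 0.0142). Leaving out WT replicate 14 (log2 0.68, adjusted p = 0.0634) or 19 (0.56, 0.0603) ended the call of Il2rb, and WT replicate 10 (log2 1.12, adjusted p = 0.0694) or 19 (0.999, 0.0678) that of Tbx21. Prdm1, which encodes Blimp-1, the direct antagonist of Bcl6, was not past the threshold, with 60.1 ± 6.36 CPM in cKO and 63.3 ± 11.6 CPM in WT (SD, adjusted p = 0.785), and is named here for its role. The abundant Selplg and S1pr1 had log2 fold changes of 0.08 and -0.07, and Klf2 had 764 ± 136 CPM in cKO and 766 ± 71.7 CPM in WT (SD).

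**Figure D5:**
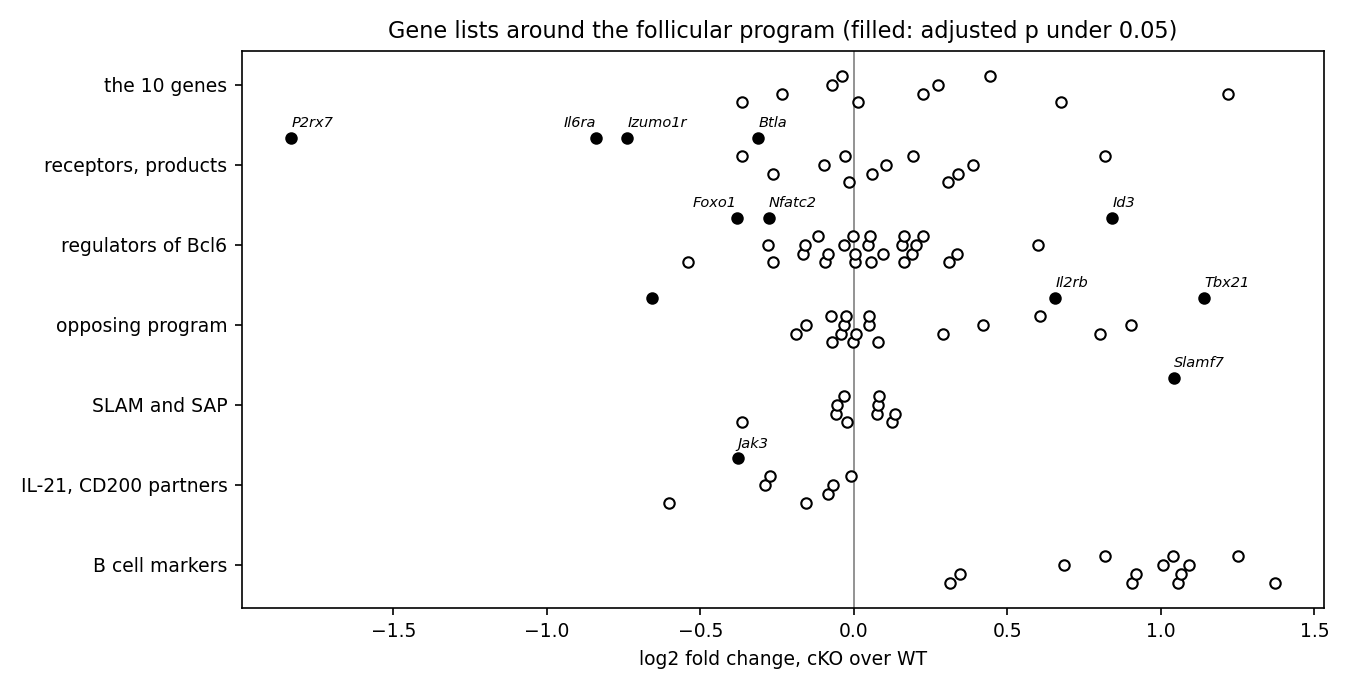
Log2 fold change, cKO over WT (x axis), of each tested gene of the 10 follicular genes, of 5 lists around them and of the B cell markers (rows), with filled points where the edgeR adjusted p was under 0.05, named where the text describes them. The filled points lie in the lists around the 10 genes, with P2rx7 at -1.83 and Tbx21 at 1.14 at the ends, and the 10 genes and the B cell markers hold none.

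In the SLAM and SAP list, 1 of 11 tested genes rose and 0 fell in edgeR, where 2.79% of all tested genes rose and 3.64% fell. DESeq2 and limma voom also called 1 higher and 0 lower. Of all tested genes, DESeq2 called 4.84% higher and 5.39% lower, and limma voom 5.02% and 5.81%. In edgeR 0 of the list were lower at an unadjusted p under 0.05, where 10.4% of all tested genes were. Slamf7, a SLAM family receptor of cytotoxic and plasma cells, had 8.7, 6.61, 4.68 and 4.83 CPM in cKO replicates 2, 3, 7 and 12, against 2.63, 3.29 and 3.07 CPM in WT replicates 10, 14 and 19 (log2 1.04 ± 0.24 SE, edgeR adjusted p = 0.0334). The cKO libraries were all higher, but the call was lost with the B cell marker covariate (log2 0.90, adjusted p = 0.101) and without cKO replicate 3 (1.01, 0.0748) or WT replicate 10 (0.96, 0.134), 14 (1.11, 0.109) or 19 (1.06, 0.113). The abundant signalling genes Prkcq, Fyn and Inpp5d had log2 fold changes of -0.02, -0.03 and 0.13 and were not past the threshold.

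Of 8 tested genes for the receptors and signal chain of interleukin 21 and for the receptor of Cd200, all had a negative log2 fold change, with a median of -0.21. Over all genes, 7645 of the 15968 tested had a negative one. Those of Stat3 and Cd200r1 were only -0.01 and -0.09. In edgeR 1 of the 8 genes fell, where 3.64% of all tested genes did. At an unadjusted p under 0.05 in edgeR, 4 were lower and 0 higher, where 10.4% and 11.1% of all tested genes were. DESeq2 called 3 lower and limma voom 2, beside 5.39% and 5.81% of all tested genes. Jak3, the kinase bound to the shared receptor chain of interleukins 2 and 21, had 601, 719, 693 and 712 CPM in cKO replicates 2, 3, 7 and 12, against 868, 951 and 840 CPM in WT replicates 10, 14 and 19 (log2 -0.38 ± 0.08 SE, edgeR adjusted p = 0.0215). The groups did not overlap, but the call was lost with the B cell marker covariate (log2 -0.34, adjusted p = 0.0735) and without WT replicate 10 (-0.40, 0.0705), 14 (-0.33, 0.105) or 19 (-0.42, 0.0514). Il21r, the specific chain of the receptor, had 243 ± 31.0 CPM in cKO and 297 ± 17.8 CPM in WT (SD, adjusted p = 0.125) and is named here as the receptor of Il21. Jak1 and Il2rg, the most abundant members that did not pass, had log2 fold changes of -0.07 and -0.27. Next in abundance was Socs3, a feedback inhibitor of cytokine receptors, with 514 ± 83.1 CPM in cKO and 780 ± 181 CPM in WT (SD), lower in every cKO library but not past the threshold (log2 -0.60, edgeR adjusted p = 0.0585).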

How the data were processed

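RNA was sequenced from sorted CD4+ T cells of 4 cKO and 3 WT libraries. The deposited values are raw counts per Ensembl gene, all whole numbers whose totals differ between libraries. A stranded kit with mRNA enrichment was used, per the labels' protocols, and bcl2fastq 2.17 and build mm10, per the submitters' processing notes. Neither the aligner nor the counter and its strand setting is given in the sources used here.

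Symbols, positions and merged exon lengths came from GENCODE M21 models on the same build, which matched 37693 of 39017 identifiers. Promoter windows came from RefSeq. Counts were filtered with filterByExpr, scaled by TMM and compared, cKO against WT without covariates, by edgeR 4.0.16 in R 4.3.3 with its quasi-likelihood test, and p-values were adjusted by Benjamini-Hochberg over 15968 genes with a threshold of 0.05. CPM used TMM factors and total counts. SE values came from the F statistic, and 95% intervals are unadjusted. No library was a duplicate, since each pair differed by at least 6.33 times sampling noise in chi-square per gene.

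The members, the lists and the tests were chosen with earlier results of these data known. All 10 members are named, and of each other list the genes past the threshold and up to 3 of the most abundant others, while Prdm1, Il21r and Cd79a were named for their role. A few genes under this rule are not reported here. Alternatives were upper-quartile or DESeq2 size factors, DESeq2 1.42.0 itself, voom with quality weights in limma 3.58.1, no filter, a CPM of at least 1 in 3 libraries, the mean log2 CPM of B cell markers (prior count 2) as a covariate, a threshold of 0.1, leaving out each library in turn and, added after the data were seen, removal of Gm42418. The test was checked on simulated data. Plots used Python 3.11.15 and matplotlib 3.10.9.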

Additional observations from a re-analysis of the deposited data

How the results depend on the processing

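Over all genes, the 1028 calls became 1633 with DESeq2, 1729 with limma voom, 1644 at a threshold of 0.1 and 419 to 1065 when a library was left out, with the lowest counts without WT replicate 14 (419), 19 (466) and 10 (497). Of the 10 follicular genes, 1 was called higher (Tox, against 0) with DESeq2, limma voom, no filter or a threshold of 0.1, and 1 lower (Slamf6, against 0) with DESeq2 or limma voom. Leaving out a library gave 0 to 1 in each direction. The log2 fold change of Bcl6 turned negative with the B cell marker covariate (-0.065) and without cKO replicate 3, cKO replicate 7 or WT replicate 10 (-0.036 to 0.11 when a library was left out). That of Cd200 turned positive without the same 3 libraries (-0.16 to 0.16), and signs turned for Cxcr5 (-0.14) and Pou2af1 (-0.50) with the covariate, and Tox2 with limma voom (-0.10). The cause of these changes was not tested. The sign of Il21, Sh2d1a, Tox, Ascl2 and Slamf6 was the same in every alternative that tested them, and the filter of CPM of at least 1 in 3 libraries left out Ascl2. Removing Gm42418 changed no call among the 10 genes. No paired analysis was possible because the labels do not say which libraries came from the same litter. Depth limits Ascl2, with 5 to 20 counts per library, most.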

Other observations

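Among the marker lists of T cells and other cells, 4 genes passed the threshold in edgeR. Sdc1, the syndecan 1 gene known from plasma cells and some T cells, had 7.01, 4.53, 4.03 and 4.07 CPM in cKO replicates 2, 3, 7 and 12, against 19.1, 15.2 and 9.13 CPM in WT replicates 10, 14 and 19 (log2 -1.57 ± 0.27 SE, adjusted p = 0.00924). The other plasma cell genes, Jchain, Mzb1 and Derl3, did not follow it, with log2 fold changes of 1.02, 1.07 and 0.07, none past the threshold. Thy1, a surface glycoprotein gene of T cells, had 325, 166, 196 and 394 CPM in cKO replicates 2, 3, 7 and 12, against 543, 548 and 594 CPM in WT replicates 10, 14 and 19. Its call (log2 -1.06, adjusted p = 0.0414) was lost with the B cell marker covariate (log2 -0.93, adjusted p = 0.104) and on leaving out any single library other than cKO replicates 2 and 12. The values were -0.88 (0.0543) without cKO replicate 3, -0.93 (0.0743) without cKO replicate 7, -1.08 (0.113) without WT replicate 10, -1.08 (0.127) without WT replicate 14 and -1.02 (0.14) without WT replicate 19. Among the other CD4 T cell markers, log2 fold changes were 0.26 for Cd5, 0.19 for Cd3e, 0.17 for Trac, 0.11 for Cd4 and 0.06 for Cd3g. Those of Trbc2 and Cd3d were -0.0047 and -0.12. None of these passed in edgeR, and limma voom called Cd3e higher (adjusted p = 0.0167).

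Of 4 tested NK cell markers, 1 was called higher and 0 lower in edgeR, where 2.79% of all tested genes were higher and 3.64% lower. Klrb1c, an NK cell receptor gene, was 3.49-fold higher in cKO (adjusted p = 0.00309), while Ncr1 had 0.886 ± 0.311 CPM in cKO and 0.864 ± 0.223 CPM in WT (SD). Prf1, with 57.7 ± 9.12 CPM in cKO and 55.9 ± 14.9 CPM in WT (SD), had a log2 fold change of 0.05. Gzma went the other way, with 1.24 ± 0.214 CPM in cKO and 1.77 ± 0.557 CPM in WT (SD, log2 -0.52, edgeR adjusted p = 0.346). The NK cell receptor genes Klra4, with 4, 6, 3 and 2 counts, and Klra8, with 2 counts each, in cKO replicates 2, 3, 7 and 12, were at 0 counts in all 3 WT libraries and too low to be tested. Ikzf2, the Helios gene of regulatory T cells, was 2.26-fold higher in cKO (log2 1.17, adjusted p = 0.0183), a call lost without WT replicate 14 (log2 1.14, adjusted p = 0.0996) or 19 (1.05, 0.0889). Il2ra, an interleukin 2 receptor chain of regulatory and activated T cells, had 735 ± 271 CPM in cKO and 393 ± 62.9 CPM in WT (SD, adjusted p = 0.0709), higher in every cKO library, and Foxp3 had 180 ± 43.2 CPM in cKO and 153 ± 30.2 CPM in WT (SD, adjusted p = 0.535).

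In edgeR 0 genes passed among the tested markers of dendritic cells and monocytes (8), granulocytes (3) and CD8 T cells (2). At an unadjusted p under 0.05, 3, 0 and 2 of them were higher in cKO and 0 lower, where 11.1% of all tested genes were higher. DESeq2 called Adgre1, a macrophage marker, and Cd8b1 as higher, and limma voom called Cd8b1, beside 4.84% and 5.02% of all tested genes called higher. Adgre1 had 14.4, 0.54, 2.56 and 0.473 CPM in cKO replicates 2, 3, 7 and 12, against 0.425, 0.347 and 0.118 CPM in WT replicates 10, 14 and 19, so cKO replicate 2 was far above the rest.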
